A study of Mus musculus with 6 samples.

Results

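The genes described here are the vitamin D receptor and the machinery for vitamin D signalling and calcium absorption in the duodenum. The rule for them names gene symbols and no measured value, although it was written with earlier results of these data known, and all 10 were found among the 22611 genes of the expression table. The list holds the receptor *Vdr*, the vitamin D enzymes *Cyp27b1* and *Cyp24a1*, the calcium channel *Trpv6*, the calcium-binding proteins *S100g* and *Calb1*, the calcium extruders *Atp2b1* and *Slc8a1*, and the claudins *Cldn2* and *Cldn12*. RNA was sequenced from duodenal epithelium of 3 WT and 3 *Esrra*-/- mice, in 1 library each, to ask what the loss of estrogen-related receptor α changes in the intestine. The *Esrra*-/- mice carried a germline null allele, so the receptor was missing in all tissues, and the WT mice were their littermates. Both genotypes were fed a high-fat diet, both sexes were used, and their ages are not given in the sources used here. The matings described for the study also carried a floxed *Esrra* allele and the *Villin-Cre-ERT2* transgene, which is driven in intestinal epithelium, and whether the sequenced mice carried either is not given in the sources used here. The labels describe release of the epithelium with EDTA and name no separation of crypts from villi for these libraries.

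Calcium crosses the intestinal epithelium by 2 routes. In the transcellular route, calcium enters the enterocyte through the apical channel TRPV6, is carried across the cell by calbindin, the product of *S100g*, and leaves through the basolateral calcium pump encoded by *Atp2b1* and the sodium-calcium exchanger encoded by *Slc8a1*. In the paracellular route it passes between cells through pores formed by claudins such as those encoded by *Cldn2* and *Cldn12*. Calcitriol, the active form of vitamin D, is made mainly in the kidney by CYP27B1, is broken down by CYP24A1 in its target cells, and acts through the vitamin D receptor, which pairs with a retinoid X receptor on DNA and is known for inducing *Trpv6*, *S100g* and *Cyp24a1* in the duodenum.

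Promoter sequences are shown for *S100g* and *Trpv6*, the entry and carrier genes, because they were the members whose promoters held the core letters of an ESRRA half-site, and for *Vdr* as the most abundant member. RefSeq promoters of 8 of the 10 genes were at hand, 11 promoters in all. Each stretch is the 250 bases before an annotated transcription start, given 5′ to 3′ on the strand of the gene. Its position is that of its single exact match on that chromosome of NCBIM37 (mm9). The *Vdr* stretch lies inside the span of the gene, downstream of its 5′ end, and no other *Vdr* promoter was at hand. Capitals mark AAGGTCA on either strand, so that TGACCTT marks it on the opposite strand.
*S100g*, chrX:159402532-159402781, minus strand: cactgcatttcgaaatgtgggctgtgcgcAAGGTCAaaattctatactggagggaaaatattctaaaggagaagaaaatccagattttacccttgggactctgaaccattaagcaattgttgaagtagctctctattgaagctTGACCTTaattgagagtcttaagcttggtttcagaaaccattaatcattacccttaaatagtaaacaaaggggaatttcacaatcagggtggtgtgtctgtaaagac
*Trpv6*, chr6:41586405-41586654, minus strand: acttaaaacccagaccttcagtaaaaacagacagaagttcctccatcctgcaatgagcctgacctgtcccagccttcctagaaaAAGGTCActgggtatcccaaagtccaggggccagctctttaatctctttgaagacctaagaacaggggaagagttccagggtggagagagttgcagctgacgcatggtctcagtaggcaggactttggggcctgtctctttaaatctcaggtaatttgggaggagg
*Vdr*, chr15:97738728-97738977, minus strand: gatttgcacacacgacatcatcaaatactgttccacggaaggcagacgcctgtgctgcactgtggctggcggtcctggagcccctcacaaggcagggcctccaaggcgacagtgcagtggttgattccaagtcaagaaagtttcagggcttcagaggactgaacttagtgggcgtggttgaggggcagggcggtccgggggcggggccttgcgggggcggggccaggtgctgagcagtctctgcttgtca
The promoter of *S100g* held AAGGTCA in 2 places, from 221 to 215 bases before the start on the strand shown and from 107 to 101 bases before it on the opposite strand. The promoter of *Trpv6* held it once, from 166 to 160 bases before the start. Among 32851 RefSeq promoters of the same length, 4.08% held AAGGTCA on either strand. The longer ESRRA half-site TCAAGGTCA, which contains AAGGTCA, was in 0.387% of promoters. An exact direct repeat of AGGTCA with 3 bases between the copies, a form bound by the vitamin D receptor with its partner, was in 0.00609% on either strand. Neither was in a promoter of these genes within the window searched. At such low shares an absence from 11 promoters says little, and looser forms of the repeat were not searched. A match of letters is a description of the sequence and not a measured binding site.

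Expression is given in FPKM, in which the fragments on a gene are divided by the length of its transcript and by the size of the library. FPKM values do not reveal how deeply a library was sequenced, so precision is given by the spread between mice. Of the 22611 genes, the 10596 with a mean FPKM above 1 were compared with limma, which fits a linear model to each gene and moderates its variance with those of the other genes. Values entered as log2(FPKM + 0.1), on which changes of weakly expressed genes appear too small. *Esrra*, the targeted gene, read 49.4, 73.5 and 103.6 FPKM in WT replicates 1 to 3 against 10.4, 9.42 and 8.72 FPKM in *Esrra*-/- (limma adjusted p = 0.0215), and 0.0378% of the genes tested had an adjusted p under 0.05. WT replicate 3 and *Esrra*-/- replicate 3 had at most a trace of Y-linked transcripts, and the other 4 libraries had 27.3 to 46.7 FPKM of them in sum. *Esrra*-/- replicate 3 held the highest value of the 6 libraries for 26.5% of the genes tested, more than any other library.

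The labelled tissue was checked against markers. The summed FPKM of 11 villus enterocyte genes was 40451 to 65279 in WT and 50258 to 68962 in *Esrra*-/-, and that of 8 mesenchymal and muscle genes was at most 3.62 in any library. Of the genes that mark the proximal small intestine, *Gata4* had 71.2 to 97.9 FPKM, while *Cybrd1*, a duodenal iron reductase, had 0.411 to 0.899 FPKM, *Pdx1*, a duodenal transcription factor, had 1.17, 0.366 and 0.866 FPKM in WT and 0.145, 0.146 and 1.31 FPKM in *Esrra*-/-, and the iron exporter *Slc40a1* had 2.46, 1.26 and 1.26 FPKM in WT and 0.34, 0.361 and 1.52 FPKM in *Esrra*-/-. *Slc40a1* was lower in *Esrra*-/- by the thresholds used here for a call (an unadjusted limma p below 0.05, log2 change over 0.58 in size) in the 4 libraries with Y-linked transcripts and without *Esrra*-/- replicate 3, but not over all 6 libraries, where its genotypes overlapped. Of 3 genes that mark the distal small intestine, the bile acid genes *Fabp6* and *Slc10a2* had at most 4.69 and 0.796 FPKM, while *Cubn*, the receptor for vitamin B12 with intrinsic factor, had 3.72 to 18 FPKM in 5 libraries and 120 FPKM in WT replicate 3. The libraries thus held abundant enterocyte transcripts and *Gata4*, while *Cybrd1*, *Pdx1* and *Slc40a1* were at low levels.

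The members divided into 3 groups by level. *Vdr*, *Cldn2*, *S100g*, *Atp2b1* and *Cldn12* had a mean above 1 FPKM and were tested. *Cyp27b1* and *Slc8a1* had traces, and *Trpv6*, *Cyp24a1* and *Calb1* were listed at 0 in all 6 libraries. *Vdr* was the most abundant member in each library, and its values did not overlap those of *Cldn2*, the next by mean. *Cldn2* was above *S100g* in 5 of 6 libraries, the exception being *Esrra*-/- replicate 3. *S100g* and *Atp2b1* overlapped in range, and *S100g* was the lower of the pair in 5 of 6 libraries although its mean was higher. *Atp2b1* was above *Cldn12* in 6 of 6 libraries with no overlap of their ranges. *Slc8a1* and *Cyp27b1* could not be ordered, since each was higher in 3 libraries.

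**Figure D1:**
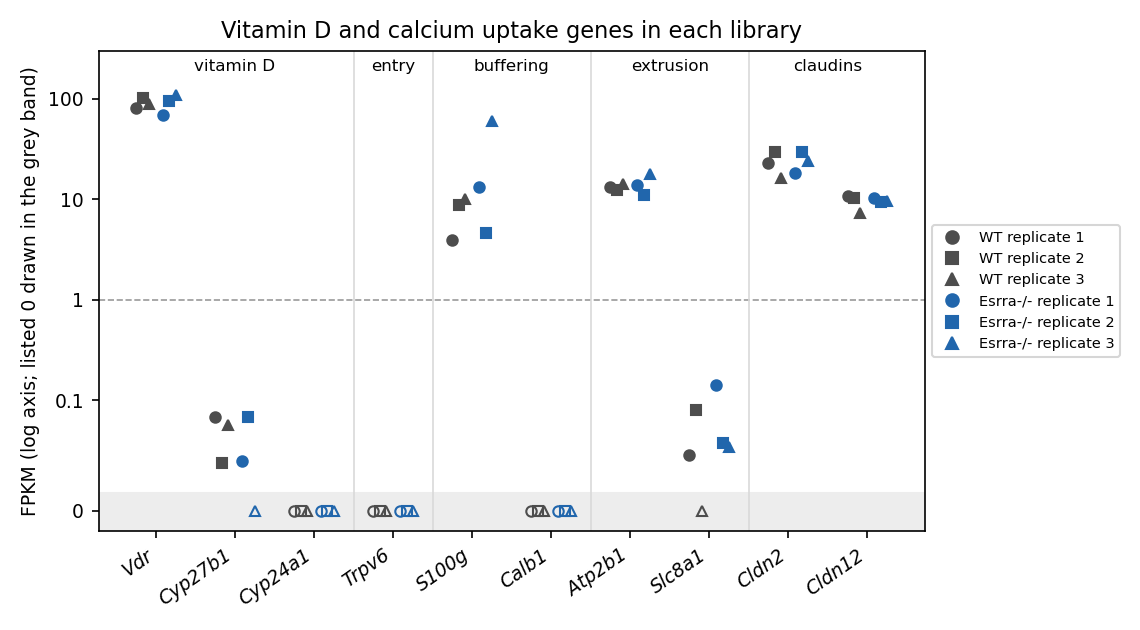
FPKM of each gene in each library on a log axis, with WT in grey and *Esrra*-/- in blue, marker shapes for replicates 1 to 3, open symbols in the grey band for values listed at 0, and a dashed line at the 1 FPKM limit on the mean. *Trpv6*, *Cyp24a1* and *Calb1* lie in the band in all 6 libraries, and *S100g* in *Esrra*-/- replicate 3, at 60.4 FPKM, stands above its other values.

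Calls of a lower or higher level in *Esrra*-/- were made at an unadjusted p under 0.05 with a log2 fold change beyond 0.58 in size, the thresholds of the study. By this rule 0 of the 5 members tested were called in limma, where 4.63% of all genes tested were called, 3.28% lower and 1.35% higher. At an unadjusted p under 0.05 with no limit on the fold change there were also 0 of 5, against 10.8% of all genes. The values of WT and *Esrra*-/- overlapped for all 5, while they did not overlap for 17.6% of all genes tested. Of the 5 log2 fold changes 4 were above 0, and those of all but *S100g* changed sign when single libraries were left out. The median log2 fold change of all genes tested was 0.03.

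**Figure D2:**
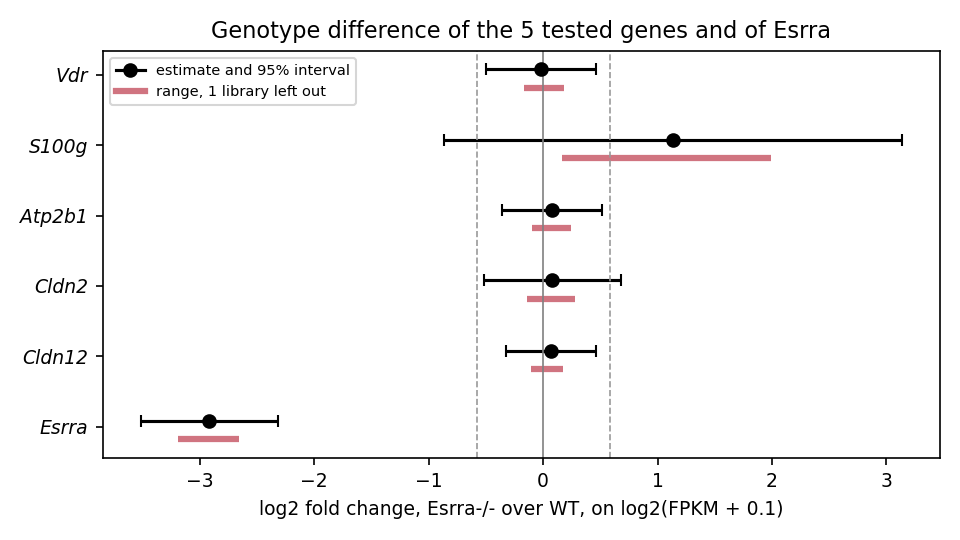
Log2 fold change of *Esrra*-/- over WT for the 5 tested members and for the targeted gene *Esrra*, with the limma estimate and its 95% interval in black, the range when each library was left out in red, and dashed lines at a size of 0.58. The intervals of the 5 members include 0, that of *S100g* is the widest, and that of *Esrra* lies entirely below.

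*Vdr* encodes the nuclear receptor for calcitriol and is found at 97684856 to 97741061 on chromosome 15 of mm9, the build of all positions here. Its level was 81.6, 103 and 89.0 FPKM in WT replicates 1 to 3 and 68.4, 95.8 and 109.9 FPKM in *Esrra*-/- replicates 1 to 3. The lowest and the highest value were both from *Esrra*-/- mice, on either side of all WT values. Mean FPKM was 91.1 ± 10.6 for WT and 91.4 ± 21.1 for *Esrra*-/- (SD, n = 3), above 95.6% of the genes in the table. The log2 fold change was -0.02 with a standard error of 0.20 (limma adjusted p = 0.984). Its 95% interval, from -0.50 to 0.46, leaves out a change of the size needed for a call in either direction. The estimate lay between -0.16 and 0.18 when each library was left out.

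*Cyp27b1* makes calcitriol, and *Cyp24a1* starts its breakdown and is among the genes most strongly induced by it. *Cyp27b1*, on chromosome 10 from 126485306 to 126490062, had 0.0683, 0.0238 and 0.0563 FPKM in WT and 0.0248 and 0.0686 FPKM in *Esrra*-/- replicates 1 and 2, and it was listed at 0 in *Esrra*-/- replicate 3. These traces overlapped between genotypes (two-sided exact permutation test on log2(FPKM + 0.1), p = 0.7, where 3 mice against 3 allow no p below 0.1). *Cyp24a1*, on chromosome 2 from 170308208 to 170322645, was listed at 0 in all 6 libraries. An exact 0 in this table need not mean that a transcript was absent, because *Rps27*, a ribosomal protein gene used by all cells, was also listed at 0 in all 6. In all, 4932 genes, or 21.8% of the table, had 0 throughout.

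*Trpv6* encodes the apical calcium channel and is on chromosome 6 from 41570620 to 41586404. It was listed at 0 in the 3 WT and the 3 *Esrra*-/- libraries, so no level, fold change or test can be given. Its closest relative *Trpv5*, the renal calcium channel, was listed at 0 as well.

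*S100g* encodes the small vitamin D-dependent calbindin that ferries calcium through the enterocyte, and lies on the X chromosome from 159399924 to 159402531. Its level was 3.91, 8.80 and 10.2 FPKM in WT replicates 1 to 3 and 13.3, 4.66 and 60.4 FPKM in *Esrra*-/- replicates 1 to 3. The WT values spanned 2.60 times and the *Esrra*-/- values 12.9 times, with *Esrra*-/- replicate 2 inside the WT range and replicates 1 and 3 above it. Mean FPKM was 7.62 ± 3.29 for WT and 26.1 ± 30.0 for *Esrra*-/- (SD, n = 3). The log2 fold change of 1.13 had a standard error of 0.85 (limma adjusted p = 0.66) and a 95% interval from -0.86 to 3.13, which takes in a fall as well as a large rise. A two-sided exact permutation test gave p = 0.4.

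The estimate for *S100g* depended on single mice. Without *Esrra*-/- replicate 3 the log2 fold change was 0.16, and the mean of the other 2 *Esrra*-/- libraries was 9.0 FPKM. Without *Esrra*-/- replicate 2 it was 1.99 with an unadjusted limma p of 0.0226 (adjusted p = 0.347), past the thresholds for a call. Between these, leaving out a WT library gave 0.72 to 1.39. In the 4 libraries with Y-linked transcripts the means were 6.35 FPKM in WT and 9.0 FPKM in *Esrra*-/-, a log2 fold change of 0.42. The 2 libraries without them, 1 of each genotype and so with no test, were the highest of their genotype for *S100g* and differed by 5.95 times.

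The spread of *S100g* within a genotype was large beside that of other genes. The SD of its log2 values was 1.84 in *Esrra*-/-, where 0.859% of the genes tested had a larger one, and 0.73 in WT, where 4.11% did. Those of all genes tested had a median of 0.21 in *Esrra*-/- and 0.22 in WT. The highest *S100g* value was 4.53 times the second highest, and 20 of the 10596 genes had a ratio at least as large. *Esrra*-/- replicate 3 was the high library for 2 of these 20, *S100g* and *Ahcy*, the latter named after its values were seen. *Vdr* over *S100g* ran from 20.9 in WT replicate 1 to 1.82 in *Esrra*-/- replicate 3, with *Vdr* itself spanning 1.61 times across the *Esrra*-/- mice.

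The summed levels of crypt and of Paneth cell markers were lower on average in *Esrra*-/-, and lowest in *Esrra*-/- replicate 3. The summed FPKM of 9 crypt genes was 214 to 338 in WT and 175, 255 and 107 in *Esrra*-/- replicates 1 to 3, so that replicates 1 and 3 lay below all WT libraries. In *Esrra*-/- replicate 3 that of 5 Paneth cell genes was also lowest, at 841 against 2862 to 9349 in the other libraries. All 9 crypt genes and all 5 Paneth genes had a negative log2 fold change, with medians of -0.61 and -1.37, and 1 and 2 of them were called lower, where 3.28% of all genes tested were. With *Esrra*-/- replicate 3 left out, the medians were -0.37 and -0.64, with 1 crypt gene and 0 Paneth genes called lower. In the 4 libraries with Y-linked transcripts, the log2 fold changes of all 9 crypt and all 5 Paneth genes were again below 0, with medians of -0.48 and -0.98 and with 2 crypt and 4 Paneth genes called, beside 348 genes called lower in all. With Y-linked transcripts as a covariate 4 crypt and 5 Paneth genes were called, beside 413 in all, and without *Esrra*-/- replicate 2, 5 of each, beside 537 in all. The Paneth calls were also lost, at 0 of 5, without WT replicate 1, without WT replicate 2, under quantile normalization and with no filter on low values. No defining marker of either list was at 0 in all libraries. The 11 villus genes all had a positive log2 fold change, with a median of 0.25 and 0 called. Without *Esrra*-/- replicate 3 the median was 0.064 with 9 of 11 above 0, and without WT replicate 2 it was 0.12 with 8 of 11 above 0. Of the 4 proximal markers, *Pdx1*, *Slc40a1* and *Gata4* were also highest in replicate 3 among the *Esrra*-/- libraries, and *Cybrd1* was not. The distal markers *Fabp6*, *Slc10a2* and *Cubn* were likewise highest in replicate 3 among the *Esrra*-/- libraries, so this order did not set proximal from distal markers. The part of cell composition or of position along the intestine in the *S100g* values was not tested, and in bulk samples fewer cells of a type and less RNA per cell cannot be told apart. The span of *S100g* also overlaps that of *Ctps2* on the opposite strand. The library kit named in the labels, an Illumina TruSeq RNA kit, is one that does not mark strand. Whether exons of these genes overlap, and so whether reads could be given to the wrong gene, was not tested. *Ctps2* had 4.09 to 6.62 FPKM and a log2 fold change of -0.20 (limma adjusted p = 0.714).

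**Figure D3:**
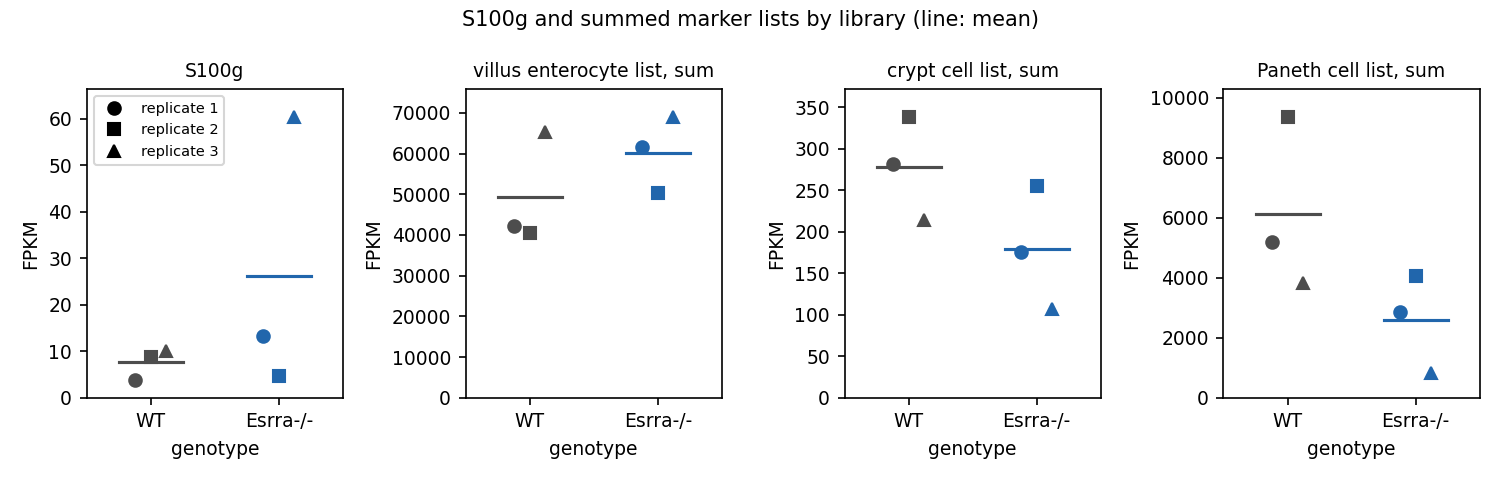
FPKM of *S100g* and summed FPKM of the villus enterocyte, crypt cell and Paneth cell marker lists in each library, by genotype, with a line at the mean and marker shapes for replicates 1 to 3. *Esrra*-/- replicate 3 has the highest *S100g* (60.4) and the lowest crypt (107) and Paneth (841) sums, and the villus sums of the genotypes overlap.

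*Calb1*, on chromosome 4 from 15808411 to 15835211, encodes the larger calbindin of kidney and neurons and was listed at 0 in all 6 libraries. The neuronal marker list summed to 0.543 to 1.43 FPKM.

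*Atp2b1* encodes the main plasma membrane calcium pump of enterocytes and lies on chromosome 10 from 98377786 to 98488777. Its level was 13.4, 12.3 and 14.3 FPKM in WT and 13.9, 11.1 and 18 FPKM in *Esrra*-/-. As for *Vdr*, the *Esrra*-/- values lay around the WT values, with replicate 2 below and replicate 3 above all of them. Mean FPKM was 13.3 ± 0.990 for WT and 14.3 ± 3.48 for *Esrra*-/- (SD, n = 3). The log2 fold change was 0.08, with a standard error of 0.19 and a 95% interval from -0.36 to 0.51 (limma adjusted p = 0.908). Without *Esrra*-/- replicate 3 the estimate was -0.10.

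*Slc8a1* encodes the sodium-calcium exchanger, which is most abundant in heart and smooth muscle, and lies on chromosome 17 from 81785359 to 82048947. It had 0.0284 and 0.0810 FPKM in WT replicates 1 and 2, was listed at 0 in WT replicate 3, and had 0.143, 0.0373 and 0.0344 FPKM in *Esrra*-/-. The genotypes overlapped at this trace level (two-sided exact permutation test, p = 0.4). Between the extruders, the pump was the one expressed above a trace.

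Neither claudin differed between genotypes beyond its spread. *Cldn2*, a pore-forming claudin permeable to cations that is found mainly in crypts, lies on the X chromosome from 136335367 to 136345925 and had 23.0, 29.3 and 16.4 FPKM in WT and 18.2, 29.7 and 24.0 FPKM in *Esrra*-/-. The ranges of the genotypes overlapped over most of their extent, and mean FPKM was 22.9 ± 6.44 for WT and 24.0 ± 5.75 for *Esrra*-/- (SD, n = 3). The change on the log2 scale was 0.08 with a standard error of 0.26 (limma adjusted p = 0.93) and a 95% interval from -0.52 to 0.68. *Cldn12*, on chromosome 5 from 5505109 to 5514958, had 10.7, 10.3 and 7.28 FPKM in WT and 10.3, 9.38 and 9.63 FPKM in *Esrra*-/-. All *Esrra*-/- values lay inside the WT range, where the mean FPKM was 9.44 ± 1.88 for WT and 9.78 ± 0.493 for *Esrra*-/- (SD, n = 3). The change on the log2 scale was 0.07 with a standard error of 0.17 (limma adjusted p = 0.908) and a 95% interval from -0.32 to 0.46. *Cldn2* was 1.77 to 3.17 times *Cldn12* across the 6 libraries.

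The genes with the library profile most like *S100g* and *Vdr* were found by the root-mean-square difference of log2(FPKM + 0.1), centred on the mean of each gene, over the 6 libraries. For *S100g*, whose own values had a root-mean-square deviation of 1.28, the nearest were *Pck1*, a gluconeogenic enzyme, at 0.46, the chemokine gene *Ccl24* at 0.48 and *Trim30a* at 0.49. *Pck1* had 25.3, 71.1 and 106 FPKM in WT and 119, 31.1 and 230.5 FPKM in *Esrra*-/-. As for *S100g*, the lowest WT value was in replicate 1, the lowest *Esrra*-/- value in replicate 2, and the highest of all in *Esrra*-/- replicate 3. This likeness follows from choosing *Pck1* by its profile over the same libraries and is not a separate result. For *Vdr*, with a deviation of 0.22, the nearest were *6330409N04Rik* at 0.05, *Morn2* at 0.05 and *Plekha3* at 0.06. *Trpv6*, listed at 0 throughout, has no profile.

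**Figure D4:**
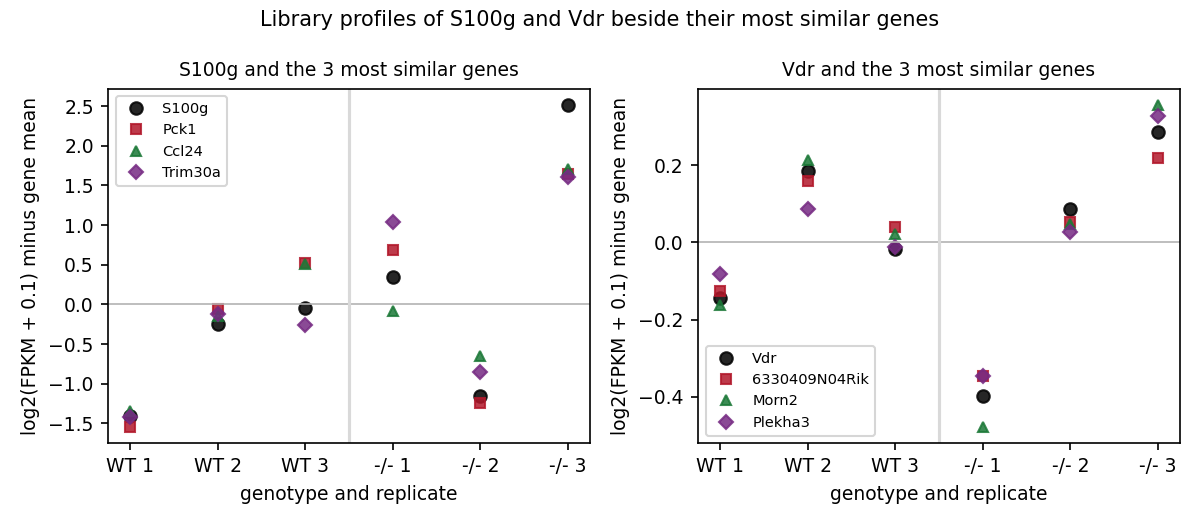
Log2(FPKM + 0.1) minus the mean of the gene in each library, for *S100g* (left) and *Vdr* (right) in black with the 3 genes nearest to each in colour. The vertical scales differ: *S100g* runs from -1.40 to 2.51 and, like its 3 neighbours, is highest in *Esrra*-/- replicate 3, while *Vdr* runs from -0.40 to 0.29 and, like its neighbours, is lowest in *Esrra*-/- replicate 1.

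Related genes were followed in lists made by symbol. Among 15 partners and coregulators of the vitamin D receptor, 14 were tested, 0 were called, and the median log2 fold change was 0.05 (-0.010 to 0.082 with each library left out in turn). *Pdia3*, a protein disulfide isomerase, had 182 to 189 FPKM in WT and 175 to 212 FPKM in *Esrra*-/-, and the corepressor gene *Ncor1* had 43.8 to 67.3 FPKM in WT and 59.1 to 94.9 FPKM in *Esrra*-/-, with overlap, at a log2 fold change of 0.49 (limma adjusted p = 0.50). *Rxra*, the retinoid X receptor best expressed here and named outside the rule for named genes, had 30.9, 35.4 and 35.7 FPKM in WT and 39.0, 35.1 and 41.5 FPKM in *Esrra*-/-. Its genotypes overlapped, and its log2 fold change was 0.18 (limma adjusted p = 0.646). *Ncor1* was called higher when WT replicate 2 or *Esrra*-/- replicate 3 was left out.

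Of 9 genes for vitamin D synthesis, carriage and breakdown, 6 were tested and 0 were called, with 5 log2 fold changes above 0 and a median of 0.47. *Cyp3a13* and *Cyp3a25*, cytochrome P450 genes of drug and steroid oxidation, were the most abundant. *Cyp3a13* had 243, 284 and 232 FPKM in WT and 297, 286 and 611 FPKM in *Esrra*-/-, with no overlap, a log2 fold change of 0.56 and an adjusted limma p of 0.544. *Cyp3a25* had 78.5 to 179 FPKM in WT and 127 to 190 FPKM in *Esrra*-/-, and overlapped. The median of this list was 0.18 without *Esrra*-/- replicate 3. Calls in this list appeared when the fit was altered: *Cyp27a1*, a mitochondrial sterol hydroxylase that also acts on vitamin D, was higher with Y-linked transcripts as a covariate, *Cyp3a25* was higher without WT replicate 3, and *Cubn* was lower without WT replicate 1. Of 6 other genes known to be induced by vitamin D, 3 were tested and 0 were called. *Cyp3a11* had 37.9, 63.2 and 77.6 FPKM in WT and 71.3, 58 and 139 FPKM in *Esrra*-/-. *Slc34a2*, the intestinal phosphate transporter, had 28.7, 57.2 and 4.45 FPKM in WT and 64.6, 95.5 and 11.9 FPKM in *Esrra*-/-. For *Slc34a2*, replicate 3 was the lowest of either genotype, unlike *S100g*, for which it was the highest. With Y-linked transcripts as a covariate *Slc34a2* was called higher.

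The lists of other calcium genes, with 8 and 13 genes tested, gave 1 call, where 4.63% of all genes tested were called. Of 22 other genes for calcium transport at the plasma membrane, 8 were tested and 0 were called. Their median log2 fold change was 0.18 with 7 of 8 above 0, but -0.012 with 4 of 8 above 0 when *Esrra*-/- replicate 3 was left out. *Anxa2* and *S100a10*, whose products form a complex that carries TRPV6 to the membrane, had 548 to 879 and 497 to 729 FPKM in WT and 582 to 1008 and 515 to 778 FPKM in *Esrra*-/-. Both were abundant in libraries where *Trpv6* itself was listed at 0. Of 15 genes for calcium buffering and the endoplasmic reticulum store, 13 were tested, and *Itpr2*, an inositol trisphosphate receptor that releases stored calcium, was called higher. *Itpr2* had 1.1, 1.13 and 1.53 FPKM in WT and 2.69, 1.91 and 2.37 FPKM in *Esrra*-/-, with no overlap, and a log2 fold change of 0.84 (standard error 0.24), an unadjusted limma p of 0.00883 and an adjusted one of 0.327. With a pseudocount of 1 it was 0.56, short of a call. *Calr*, the calcium-binding chaperone of the store, had 321 to 337 FPKM in WT and 336 to 446 FPKM in *Esrra*-/-, with overlap and a log2 fold change of 0.18.

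Of 27 claudin symbols, which include *Cldn2* and *Cldn12*, 8 had a mean above 1 FPKM and 0 were called, with a median log2 fold change of 0.07 (0.0059 to 0.16 with each library left out in turn). *Cldn7* was the most abundant at 413 to 597 FPKM in WT and 444 to 660 FPKM in *Esrra*-/-, followed by the cation pore *Cldn15* at 257 to 393 and 263 to 580 FPKM. *Cldn15*, which like *Cldn2* forms a sodium-permeable pore, was above both claudins of the calcium route in each library. Of 11 other tight junction genes, 10 were tested and 0 were called. All 10 had a log2 fold change above 0, also under quantile normalization and median-ratio scaling, with a median of 0.18, where 54.3% of all genes tested were above 0. Without *Esrra*-/- replicate 3, 8 of the 10 were above 0. *F11r*, a junctional adhesion molecule, had a log2 fold change of 0.11 and *Tjp3*, a scaffold protein, one of 0.30 (limma adjusted p = 0.50).

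Of 10 genes for phosphate and magnesium transport, 7 were tested and 0 were called, and *Cnnm4*, a magnesium exporter, had a log2 fold change of 0.17. In this list *Slc34a2* was called with the covariate, and *Cnnm2*, another magnesium transport gene, was called higher in the 4 libraries with Y-linked transcripts, without WT replicate 1 and without *Esrra*-/- replicate 3. Of 14 receptors for calcium-regulating and sex hormones, 6 were tested and 0 were called, with a median of 0.04 (-0.042 to 0.092 with each library left out in turn). *Esr1*, the estrogen receptor, had 42.0, 37.9 and 52.6 FPKM in WT and 22.4, 37.8 and 76.3 FPKM in *Esrra*-/-, so that replicate 3 was again the highest of either genotype, and its log2 fold change was -0.12, with a standard error of 0.41. *Thra*, a thyroid hormone receptor, had 32.0 to 35.6 FPKM in WT and 33.3 to 38.9 FPKM in *Esrra*-/-.

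**Figure D5:**
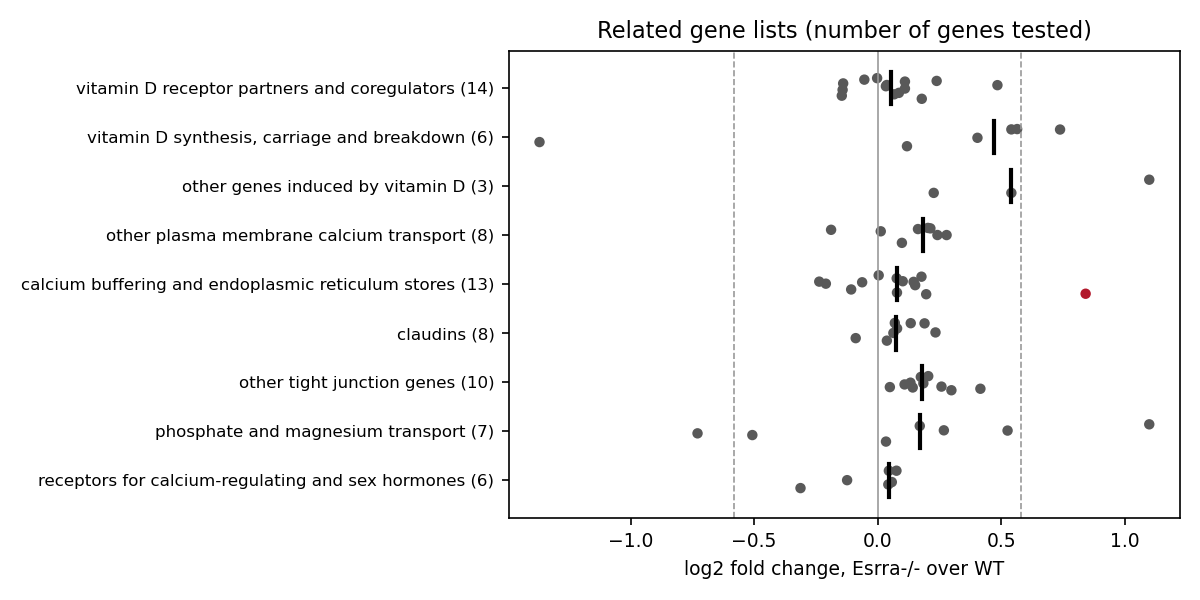
Log2 fold change of *Esrra*-/- over WT for each tested gene of the related lists (points), with the median of a list as a black bar, dashed lines at a size of 0.58, and the number of genes tested beside each name. The red point is *Itpr2*, the 1 gene called, at 0.84, where 4.63% of all genes tested were called.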

How the data were processed

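Reads had been quality-checked by the authors in FastQC and pseudoaligned to mm9 in Kallisto, and their FPKM came from DESeq2. The annotation is not given in the sources used here. The deposited FPKM of 22611 genes in 6 libraries were used, and the deposited table of the authors' own comparison (mean counts, fold changes, p-values) was not. Samples were grouped by title. log2(FPKM + 0.1) of the 10596 genes with a mean FPKM above 1 was tested with limma 3.58.1 in R 4.3.3 (lmFit, eBayes with a mean-variance trend, no covariate), with p-values adjusted by Benjamini-Hochberg across those genes, after the script was tested on simulated data. FPKM are not counts, so no count model was fitted. FPKM do not hold the depth of each library, and only a nominal read number is stated for the study, so no counting interval is given. Gene positions are from GENCODE M1 on NCBIM37, the mm9 assembly. Promoters are from RefSeq (GRCm38.p6) and were placed on NCBIM37 by exact match. Replicate numbers were not taken as pairs.

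The members and lists were chosen with earlier results of these data known. Named genes were the members, *Esrra*, the called genes and the 2 most abundant genes of each related list, and the 3 genes with the profile nearest to *S100g*, *Trpv6* and *Vdr*. A gene that this rule names is not reported here. Outside that rule are genes named to check the tissue, neighbouring genes and the genes called in an alternative alone. So are *Rps27*, *Trpv5*, *Rxra*, *Rxrg*, *Gc*, *Marveld2* and *Ahcy*. Markers of goblet, enteroendocrine, tuft, immune, endothelial and pancreatic acinar cells were summed too, and 0 genes of these lists were called. Alternatives were another pseudocount, other filters and scalings, no trend, a replicate block, Y-linked transcripts as a covariate or a restriction, each library left out, and other thresholds.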

Additional observations from a re-analysis of the deposited data

How the results depend on the processing

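Over all genes tested, 143 were called higher and 348 lower. These counts were 277 and 528 with no filter on low values, 2 and 2 at an adjusted p under 0.05, and 456 and 688 at an unadjusted p with no fold limit. With each library left out in turn they ran from 146 to 214 and from 252 to 537, the last without *Esrra*-/- replicate 2. Of the members, 0 were called lower in any alternative and 0 higher, except for 1, *S100g*, without *Esrra*-/- replicate 2 (0 to 1 over the fits that left out a library).

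For the members' fold changes, 65 of 75 alternative estimates kept sign and call, 1 gained a call and 9 changed sign, with the cause not tested. The other filters, the fit with no trend, the replicate block and the Y-linked covariate returned the main estimate of each member. In these fits only the call could change, so they say nothing of how stable a sign was. In the libraries with Y-linked transcripts the log2 fold changes were -0.048 for *Atp2b1*, -0.095 for *Cldn12* and -0.15 for *Cldn2*. Without WT replicate 3 they were -0.10 for *Cldn12* and -0.14 for *Cldn2*. Without *Esrra*-/- replicate 3 that of *Atp2b1* was -0.10, and without *Esrra*-/- replicate 2 that of *Cldn2* was -0.09. Over the fits that left out 1 library, the estimates ran from -0.10 to 0.25 for *Atp2b1*, -0.10 to 0.17 for *Cldn12*, -0.14 to 0.28 for *Cldn2* and -0.16 to 0.18 for *Vdr*. *Vdr* had 0.07 without WT replicate 2 and 0.18 without *Esrra*-/- replicate 1.

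With the replicate number as a block, 192 genes were called higher, 441 lower and 0 members. In the related lists the block added higher calls of *Cyp27a1* and *Slc34a2*, and 4 crypt and 5 Paneth genes were called lower. The deviations of same-numbered libraries from their group means correlated across genes at 0.01, 0.26 and 0.38 for replicates 1 to 3, and replicate 1 of WT correlated best with replicate 2 of *Esrra*-/-, so the numbers were not taken to pair the mice. FPKM values give no depth, which limits what can be said of *Trpv6*, *Cyp24a1*, *Calb1* and the traces of *Cyp27b1* and *Slc8a1*.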

Other observations

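*Ahcy*, which encodes adenosylhomocysteinase, had 3.49, 3.52 and 4.08 FPKM in WT and 5.23, 5.34 and 91.8 FPKM in *Esrra*-/-, with *Esrra*-/- replicate 3 at 17.2 times the second highest library. *Cubn*, whose product takes up the vitamin D carrier complex in the kidney and vitamin B12 with intrinsic factor in the ileum, had 6.52, 17.9 and 120 FPKM in WT and 11.9, 3.72 and 18 FPKM in *Esrra*-/-, so that WT replicate 3 stood apart. *Gc*, the vitamin D carrier of plasma, and *Rxrg* were listed at 0 in all 6 libraries. Outside the thresholds for a call, *Marveld2* (tricellulin) and *Cnnm2* (a magnesium transport gene), named after their values were seen, had genotypes that did not overlap, with log2 fold changes of 0.42 and 0.53.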
